A study of Arabidopsis thaliana with 32 samples.

Results

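The *XTH* genes of Arabidopsis encode the xyloglucan endotransglucosylases/hydrolases, named *XTH1* to *XTH33*, and the family was followed here in seedlings grown at a cool and a warm ambient temperature. Members were taken by their gene identifiers, all 33 of which were in the table of 27655 genes. RNA was sequenced from whole Arabidopsis thaliana seedlings of 4 genotypes (Col-0, the wild type, and *pif4-2*, *hmr-22* and *med14-2*, all in the Col-0 background), each at a temperature of 20°C or of 27°C under continuous red light (50 µmol m−2 s−1) that lasted 96 h. Each of the 8 groups had 4 biological replicates, which gave 32 libraries of stranded mRNA. The *pif4-2* and *med14-2* lines carry T-DNA insertions in the transcription factor gene *PIF4* and the Mediator subunit gene *MED14*, and *hmr-22* is described by the study as a weak allele of *HEMERA* (*HMR*) with 1 changed amino acid. Each mutant is a single allele, so a change seen in 1 line cannot be told apart from another mutation that the line may carry.

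XTH enzymes act on xyloglucan, the main hemicellulose that coats and tethers cellulose microfibrils in the primary wall of most land plants other than grasses. Most of them cut a xyloglucan chain and join the new end to another chain, which lets a wall yield or be rebuilt without losing its polymers, and a few members of group III hydrolyse the chain instead. Growth by cell expansion, as in the elongating hypocotyl of a warm-grown seedling or in a root hair, draws on particular members in particular tissues. *XTH* transcripts are also known targets of auxin, brassinosteroid, touch and light. The family is divided by sequence into group I (*XTH1* to *XTH11*), group II (*XTH12* to *XTH26*) and group III (*XTH27* to *XTH33*).

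The deposited unit is FPKM, the fragments of a gene set against its exon length and the mapped total. Recovered from the steps between low values, depth ran from 11911240 to 16883320 fragments per library. The libraries labelled *hmr-22* stand apart: fragments in nuclear genes made up 35.2 to 61.0% of the total at 20°C and 64.4 to 74.7% at 27°C, against 68.0 to 93.0% in Col-0. Values below are therefore scaled FPKM, the deposited FPKM divided by the scaling factor of the library (a trimmed mean of M values), unless said otherwise. These factors ran from 0.197 to 0.647 in the libraries labelled *hmr-22* and from 0.871 to 1.83 in the others, and without them the median of all genes shifted by −1.39 log2 units between *hmr-22* and Col-0 at 20°C, by −1.32 at 27°C, and by 0.32 to 0.57 between the temperatures. At 20°C the Col-0 libraries held 21 to 27.6 scaled FPKM of *HMR* and the *hmr-22* libraries 0.217 to 1.43, and at 27°C these ranges were 26.0 to 31.3 and 1.07 to 2.08 (exact permutation test, two-sided, p = 0.0286 at each temperature, the smallest p that 4 against 4 allows), so the transcript was far below Col-0 in a line described as a substitution allele. *PIF4* was at 2.86 to 4.99 in *pif4-2* and 12.4 to 15.6 in Col-0 at 27°C (exact p = 0.0286), while at 20°C the ranges of 4.61 to 6.07 and 4.27 to 7.69 overlapped (exact p = 0.257). *MED14* went against its label, with 7.82 to 8.56 scaled FPKM in the libraries labelled *med14-2* and 4.37 to 5.40 in Col-0 at 20°C (exact p = 0.0286), and overlapping ranges of 5.60 to 6.56 and 4.81 to 5.68 at 27°C (exact p = 0.0571). A value per gene does not show on which side of an insertion the fragments lie. The mutants are named below by these labels. In the library of *med14-2* at 27°C with replicate number 1, 55.9% of fragments were in nuclear genes, against up to 95.8% in its group, and leaving it out moved no count of members by over 1.5 times.

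XTH enzymes share a short catalytic site, whose coding sequence is shown first. Which members are close copies, whose reads could be confused, is taken from the whole coding sequence and not from this site. In 32 of 33 members a single exon holds 10 codons that read through the site, and the sites of 11 members that the results turn on are printed from the TAIR10.1 reference, 5′ to 3′ on the coding strand, with the codons of both catalytic glutamates in capitals (the nucleophile at codon 3 and the general acid/base at codon 7). The pattern searched did not find the site in *XTH11*, whose results are given all the same.
*XTH4*: catgacGAGatagactttGAGttccttgga
*XTH15*: catgacGAGatagactttGAGtttctaggt
*XTH12*: tgggatGAGattgatttcGAGttcttgggt
*XTH13*: tgggatGAAatcgacttcGAGttcttgggt
*XTH14*: tgggatGAGattgacttcGAGtttttggga
*XTH17*: tgggatGAGatcgatttcGAGttcttggga
*XTH18*: tgggatGAGattgatttcGAGttcttagga
*XTH22*: tgggacGAGatagatttcGAGtttttaggg
*XTH24*: tgggatGAGattgattttGAGttcttgggt
*XTH25*: tgggacGAAatcgatttcGAGtttcttggt
*XTH31*: cacgatGAGgtcgatatcGAGtttctaggg
No pair of the 32 sites was identical. Both glutamate codons were present in each, but this follows largely from the search. The pattern required a glutamate at codon 7 and a glutamate or glutamine at codon 3. In 12 members, all of group II, the run opens with tgg, the codon of tryptophan, including the 4 that rose in Col-0 at 27°C and 4 of the 6 that fell (below). Over the coding sequence, *XTH12* and *XTH13* were the closest pair, with 89.4% of 855 aligned bases identical, followed by *XTH18* with *XTH19* (87.6%), *XTH17* (85.6%) and *XTH20* (85.6%). How the authors' mapping split reads between such copies is not given in the sources used here, so values of these 6 genes carry that uncertainty. *XTH15* (AT4G14130, minus strand) overlaps AT4G14120 on the plus strand at its end, and the authors' mapping was strand-specific.

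Several members sit side by side in the genome. On chromosome 5, *XTH12* (AT5G57530, chromosome 5, 23300321 to 23301689), *XTH13* (AT5G57540, chromosome 5, 23302787 to 23304095), *XTH25* (AT5G57550, chromosome 5, 23304782 to 23306440) and *XTH22* (AT5G57560, chromosome 5, 23307006 to 23308680) follow each other on the minus strand, with 1 other gene between the first pair. Chromosome 4 holds *XTH23* (AT4G25810, chromosome 4, 13128394 to 13129927) and *XTH14* (AT4G25820, chromosome 4, 13130291 to 13131860) 363 bases apart on the plus strand, and *XTH24* (AT4G30270, chromosome 4, 14819192 to 14820595), *XTH18* (AT4G30280, chromosome 4, 14825757 to 14827211) and *XTH19* (AT4G30290, chromosome 4, 14828712 to 14830224) on the minus strand. These are TAIR10 coordinates, which all 33 members share with the reference. As the values that follow show, some neighbours moved together with warmth and others did not. In Col-0 *XTH12* and *XTH13* both fell but *XTH22* rose, and *XTH23* rose while *XTH14* fell, whereas *XTH25* and *XTH22* both rose in *hmr-22*.

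A handful of members supplied most of the family's transcript. Summed over the 33 genes, scaled FPKM was 816 ± 103 (SD, n = 4) in Col-0 at 20°C and 1147 ± 272 at 27°C, with ranges of 733 to 967 and 879 to 1467 that overlapped. *XTH4*, a group I member of growing stems and hypocotyls, made up 30.1 ± 3.00% of that sum at 20°C and 33.8 ± 0.391% at 27°C, and *XTH7*, also of group I, made up 18.2 ± 2.31% and 28.6 ± 2.86%. *XTH31*, a group III member with hydrolase activity that is best known from roots, supplied 14.7 ± 3.38% at 20°C and 6.19 ± 1.55% at 27°C. The libraries labelled *hmr-22* had another make-up: *XTH4* supplied 54.3 ± 2.48% at 20°C but 8.13 ± 1.12% at 27°C, where *XTH24*, a group II member first found in meristems, supplied 66.7 ± 2.99%. In Col-0 *XTH24* was at 6.78 ± 0.594% of the sum at 27°C, so the ranges of *hmr-22* (63.0 to 70.3%) and Col-0 (6.08 to 7.37%) were far apart.

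**Figure D1:**
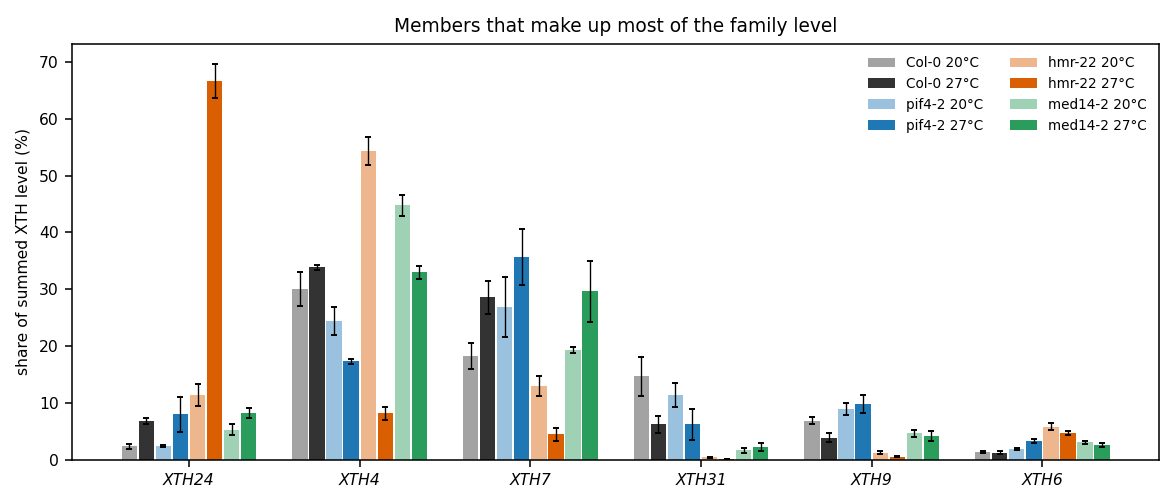
Share of the summed *XTH* level (in %, scaled FPKM of 1 member over the sum of all 33) for the 6 members that reached the highest share in any group. Bars are means of 4 libraries and whiskers 1 SD, pale for 20°C and full colour for 27°C; *XTH24* reached 66.7% in *hmr-22* at 27°C, against 6.78% in Col-0.

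The 4 quietest members could not be tested. *XTH1* had no fragment in any of the 32 libraries, *XTH2* had 5 in all, *XTH3* had 2 and *XTH29* had 19, at most 7 in 1 library, and none reached 0.5 FPKM in 4 libraries. The other 29 members passed that filter, as 19937 genes did. They were tested with limma on log2(scaled FPKM + 0.25) in a single model of the 8 group means, which understates the change of low genes. P values were adjusted over all 19937 genes by the Benjamini-Hochberg method. After a log2 change or difference, ± is the standard error of this model, and after a level or share it is the SD (n = 4). The spread of a gene is shared by all 8 groups in this model. The *hmr-22* replicates varied more, with a median SD over genes of 0.461 and 0.318 log2 units at 20°C and 27°C, against 0.146 to 0.208 elsewhere. The p values of *hmr-22* therefore also rest on the tighter spread of the other groups. A change with temperature or between genotypes needed a 2-fold size, a mean of over 1 deposited FPKM in the larger group and an adjusted p under 0.001. A difference of a mutant's response to warmth from that of Col-0 was called at an adjusted p under 0.05. Of the 29 tested members, 28 were called in at least 1 of these 13 comparisons and only *XTH10* in none. *XTH10* stayed between group means of 0.206 and 0.605 scaled FPKM. Seedlings were sequenced whole, so fewer cells of a type and less RNA per cell cannot be told apart in any of the results.

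The first question was which members responded to warmth in the wild type. In Col-0, 4 of 29 members were higher at 27°C (2.24% of all tested genes were called higher) and 6 were lower (2.99% of all tested genes), and all but *XTH5* belong to group II, of whose 15 members 4 rose, 5 fell and 6 were not called. The median log2 change of the 29 members was −0.21, beside 0.02 for all tested genes, so the family did not move as a block. Without scaling, 7 members were called higher and 5 lower.

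The 4 members that rose were *XTH17*, *XTH22*, *XTH23* and *XTH24*. *XTH17* (AT1G65310), a group II member of roots, stood at 11.9, 12.0, 12.3 and 15.0 scaled FPKM in the 4 libraries at 20°C and at 38.6, 36.4, 69.9 and 62.8 at 27°C. Every warm library lay above every cool library, at a log2 change of 1.95 ± 0.37, adjusted p = 1.61e-04. It was not called when either of the Col-0 27°C libraries with replicate numbers 3 and 4 was left out (adjusted p between 2.39e-04 and 0.00129 over the 8 fits that leave out 1 library). *XTH22* (AT5G57560), better known as *TCH4*, a gene induced by touch and by brassinosteroid, was low at 20°C, at 0.801, 0.992, 1.02 and 1.22, and reached 4.04, 3.98, 8.34 and 8.07 at 27°C. Its ranges did not overlap, and the change of 2.27 ± 0.27, adjusted p = 1.92e-07 was the largest rise of the family in Col-0. *XTH23* (AT4G25810), also called *XTR6*, stood at 0.564, 0.861, 0.449 and 0.856 at 20°C and 1.46, 2.76, 3.73 and 2.95 at 27°C. It rose without overlap from a level near 1 FPKM, by 1.64 ± 0.28, adjusted p = 4.36e-05. *XTH24* (AT4G30270) went from 19.2, 17.3, 21.6 and 17.3 to 63.2, 53.5, 105 and 93.8, and here too the lowest warm library exceeded the highest cool library (2.00 ± 0.27, adjusted p = 1.33e-06). In all 4 genes the warm libraries with replicate numbers 3 and 4 were above those with 1 and 2.

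Among the abundant members, *XTH7* and *XTH4* were higher on average at 27°C but did not pass. *XTH7* (AT4G37800) was at 151 ± 39.7 scaled FPKM at 20°C and 333 ± 110.1 at 27°C, a log2 difference of 1.12 ± 0.29, adjusted p = 0.00443. *XTH4* (AT2G06850) had 218, 199.9, 266 and 301 at 20°C and 328, 301, 489 and 433 at 27°C, where the lowest warm library fell just inside the cool range (0.64 ± 0.21, adjusted p = 0.0245). Both were called higher when the FPKM values were not scaled.

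**Figure D2:**
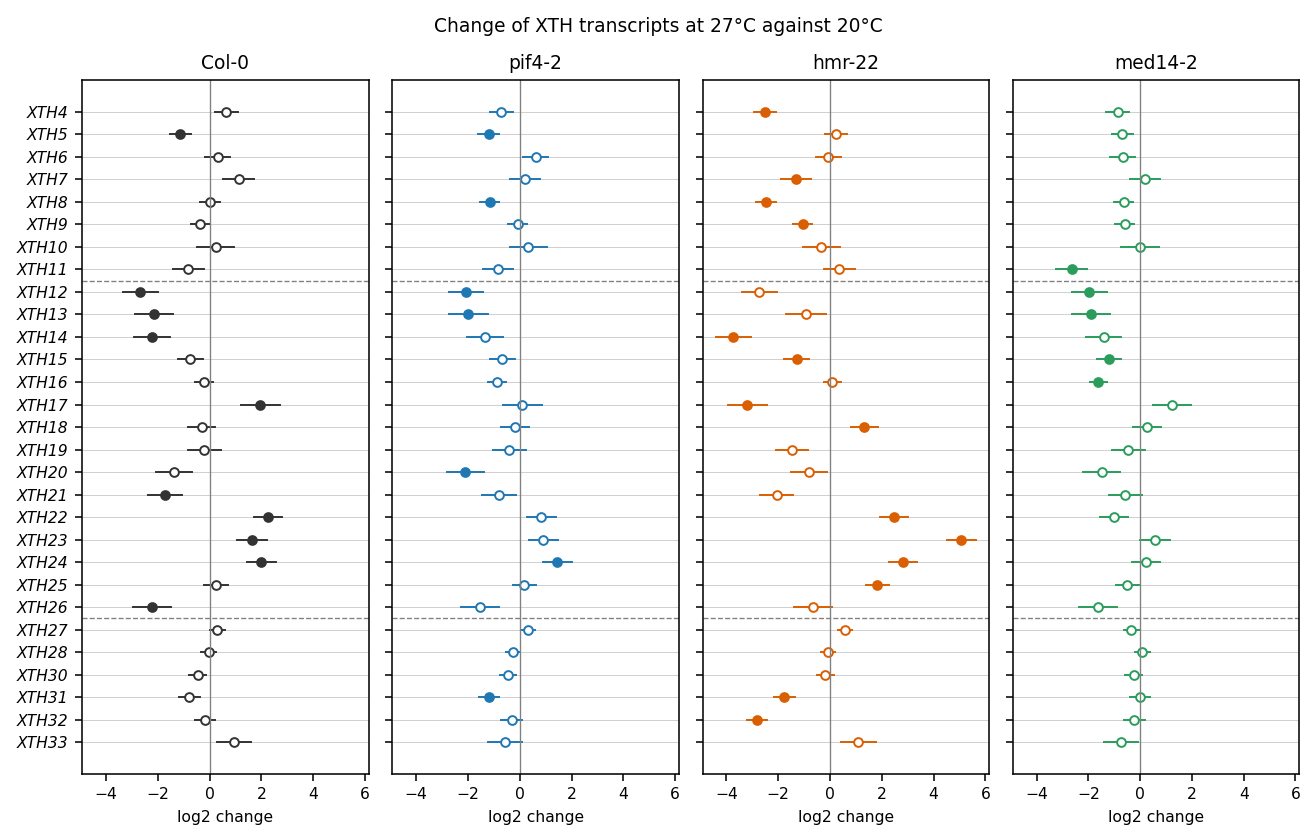
Log2 change at 27°C against 20°C of the 29 tested members in each genotype, with 95% confidence intervals as lines and filled points where the change was called. Dashed lines part groups I, II and III from top to bottom; in Col-0, the 4 filled points to the right are *XTH17*, *XTH22*, *XTH23* and *XTH24*.

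The 6 members that fell in Col-0 included those known from root hairs. *XTH14* (AT4G25820), an enzyme of the root hair and root elongation zone, dropped from 14.7, 16.2, 17.6 and 14.6 scaled FPKM at 20°C to 2.18, 2.33, 5.35 and 3.7 at 27°C. All 4 warm libraries were below all 4 cool ones (−2.22 ± 0.34, adjusted p = 8.16e-06). Lower still in level, *XTH12* (AT5G57530) went from 6.24 ± 0.85 to 0.767 ± 0.15 (SD, n = 4), a change of −2.68 ± 0.33, adjusted p = 3.18e-07, and its close copy *XTH13* (AT5G57540) from 3.11 ± 0.372 to 0.526 ± 0.212 (−2.15 ± 0.37, adjusted p = 4.77e-05). *XTH26* (AT4G28850), which acts in root hairs as well, fell from 2.49 ± 0.57 to 0.335 ± 0.134 (−2.23 ± 0.36, adjusted p = 2.16e-05). For each of these 4 genes the ranges of the temperatures were apart. *XTH21* (AT2G18800), a gene of primary root growth, fell by 1.71 ± 0.32 on the log2 scale (adjusted p = 1.41e-04) and was not called without the Col-0 27°C library with replicate number 1, over a range of adjusted p from 1.07e-04 to 0.00119. *XTH5* (AT5G13870), a group I member, fell by 1.13 ± 0.20 (adjusted p = 8.69e-05) and was not called without scaling.

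Markers of root hair cells moved with these falls. Of the 11 genes of a root hair list, 8 were called lower (2.99% of all tested genes) and 0 higher (2.24%) in Col-0 at 27°C. The median log2 change of the list was −1.85, beside 0.02 for all tested genes. Those called lower included the expansin gene *EXPA7* (−2.04 ± 0.31, adjusted p = 8.88e-06), the proline-rich wall protein gene *PRP3* (−2.36 ± 0.34, adjusted p = 3.78e-06), *COBL9* (−1.91 ± 0.22, adjusted p = 1.36e-07) and the NADPH oxidase gene *RHD2* (−1.54 ± 0.24, adjusted p = 1.48e-05). The summed level of the list was 51.7 to 60.5 scaled FPKM at 20°C and 8.42 to 16.1 at 27°C, and the sum of *XTH12*, *XTH13*, *XTH14* and *XTH26* was 26.3 to 29.9 and 3.49 to 7.45. None of the 11 markers was at 0 in all libraries of a Col-0 group. In the *hmr-22* libraries at 27°C, the list stood at 1.04 to 3.16 with *PRP1*, *LRX1* and *IRE* at 0 in all 4, and the sum of the 4 members at 0 to 1.01. Of 5 root endodermis markers, 2 were called lower in Col-0 (2.99% of all tested genes), and the list's sum went from a range of 57.4 to 71.6 to one of 24.4 to 45.4. The part of a change in tissue make-up in the fall of these members was not tested.

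**Figure D3:**
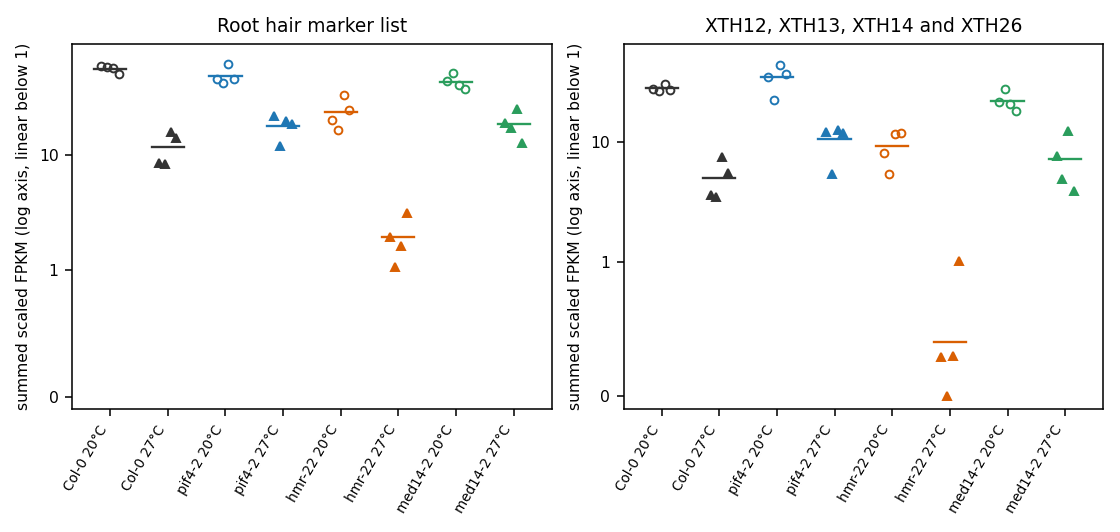
Summed scaled FPKM of the 11 root hair markers (left) and of *XTH12*, *XTH13*, *XTH14* and *XTH26* (right) in every library, with a horizontal line at the group mean. Open circles are 20°C and filled triangles 27°C; the vertical axis is logarithmic above 1 and linear below, and in all 4 genotypes both sums are lower at 27°C.

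In *pif4-2*, fewer members passed in the direction of a rise. At 27°C, 1 of 29 members was higher (3.00% of all genes) and 6 were lower (2.70%), with a median log2 change of −0.44 beside −0.03 for all genes. Without scaling the counts were 2 and 4. At an unadjusted p under 0.05, 5 were higher and 14 lower, beside 8 and 12 in Col-0. *XTH22*, *XTH23* and *XTH27* were higher at 27°C with ranges apart but were not called. The member called higher was *XTH24*, also called in Col-0, and 3 of the 6 that fell, *XTH5*, *XTH12* and *XTH13*, had fallen in Col-0 as well. The libraries of *pif4-2* held 31.5, 21.9, 30.4 and 32.1 scaled FPKM of *XTH24* at 20°C and 155, 80.3, 56.6 and 54.8 at 27°C, a non-overlapping rise of 1.45 ± 0.27, adjusted p = 1.24e-04. Its response did not differ from that of Col-0 at the threshold (difference −0.55 ± 0.38, adjusted p = 0.635, 95% interval −1.33 to 0.22).

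Set directly against Col-0, the response to warmth of *pif4-2* was lower for 4 members (0.943% of all genes) and higher for 0 of 29 (1.54% of all genes). At an unadjusted p under 0.05 limma gave 0 higher and 7 lower, and voom on the recovered fragments called 0 higher and 4 lower. Limma without the *hmr-22* libraries called 1 higher and 6 lower. For *XTH17*, *pif4-2* had 19.6, 14.8, 17.3 and 20.0 scaled FPKM at 20°C and 19.1, 15.5, 20.3 and 21.8 at 27°C, so the temperatures overlapped, and the response differed from that of Col-0 by −1.86 ± 0.52, adjusted p = 0.0485. For *XTH22* the corresponding libraries held 2.34, 2.17, 2.59 and 3.05 at 20°C and 5.1, 4.07, 5.12 and 4.51 at 27°C. This gene started above the Col-0 range and ended within it, and the difference in response was −1.43 ± 0.38, adjusted p = 0.0346. Both calls are marginal: *XTH17* was lost in 15 of the 16 fits that leave out 1 library (adjusted p from 0.0487 to 0.120) and *XTH22* in 11 (0.0249 to 0.118), and only *XTH4* and *XTH8* remained called, 2 members, when any of 11 libraries was left out (each of the 4 Col-0 libraries at 20°C, Col-0 at 27°C with replicate numbers 3 and 4, *pif4-2* at 20°C with 3 and 4, and *pif4-2* at 27°C with 2, 3 and 4). *XTH4* had 297, 225, 329 and 334 at 20°C and 207, 195, 155 and 165 at 27°C, lower in every warm library where Col-0 was on average higher, and the difference in response of −1.35 ± 0.30, adjusted p = 0.00877 was called in all 16 of these fits. *XTH8* (AT1G11545), another group I member, did likewise, with 35.0 ± 4.7 falling to 15.4 ± 1.76 in *pif4-2* beside 36.4 ± 2.09 and 37.3 ± 7.25 in Col-0 (difference −1.19 ± 0.26, adjusted p = 0.00796). These 2 genes were also the members that limma called lower than Col-0 at 27°C itself. The *pif4-2* libraries of *XTH17* and *XTH33* lay below all those of Col-0 at 27°C too, and both genes were called lower there without scaling.

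**Figure D4:**
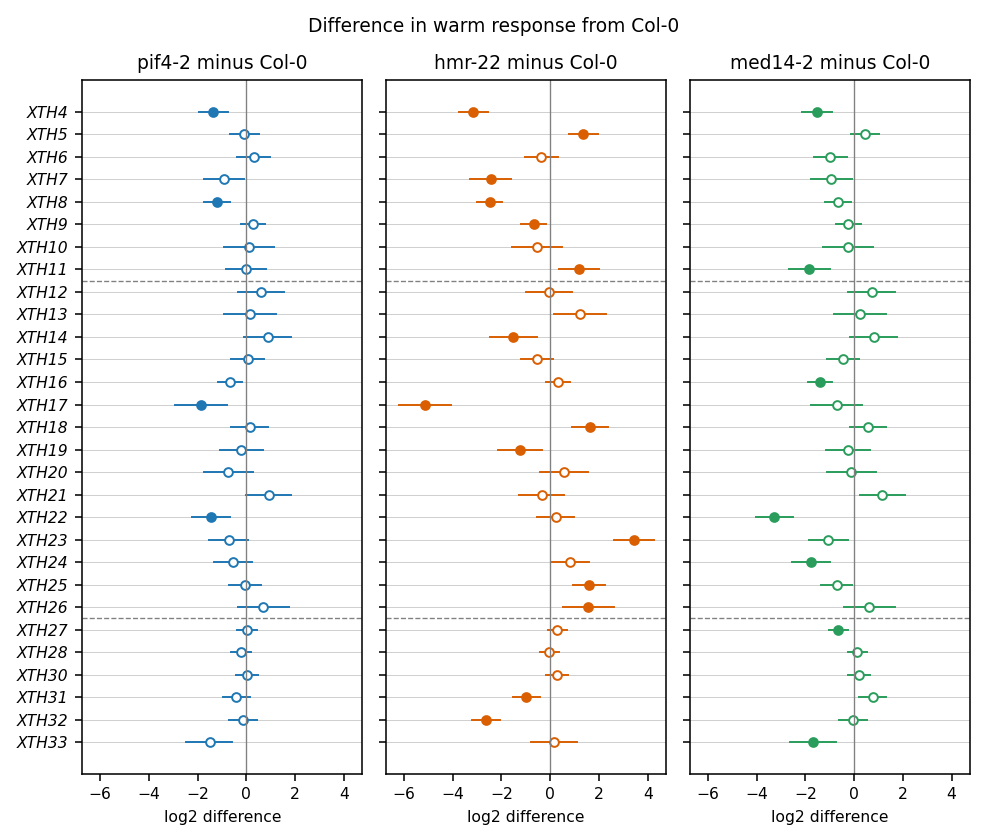
Difference of the log2 response to warmth (27°C against 20°C) between each mutant and Col-0 for the 29 tested members, with 95% confidence intervals as lines and filled points where the difference was called at an adjusted p under 0.05. The 3 panels share the Col-0 libraries; the filled points of *pif4-2* are *XTH4*, *XTH8*, *XTH17* and *XTH22*.

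At a fixed temperature, few members separated *pif4-2* from Col-0. No member passed at 20°C, higher (0.677% of all genes) or lower (0.105%), in limma; at an unadjusted p under 0.05, 12 members were higher and 0 lower, and voom called 1 higher, *XTH20*. Without the Col-0 20°C library with replicate number 4, limma called 1 higher, *XTH9*. *XTH20* (AT5G48070), a group II gene of roots and of healing stems, had 11.1, 10.2, 12.7 and 11.8 scaled FPKM in *pif4-2* and 4.92, 4.02, 2.19 and 6.07 in Col-0 at 20°C. Its ranges were apart, at a difference of 1.44 ± 0.35, adjusted p = 0.00559. At 27°C, 2 of 29 were higher (3.38% of all genes) and 2 lower (1.1%); without scaling 0 were higher and 4 lower. *XTH6* (AT5G65730), of group I, was higher with 46.6, 39.1, 27.1 and 28.3 against 11.6, 8.42, 21 and 17.1 (1.31 ± 0.23, adjusted p = 8.97e-05), and *XTH9* (AT4G03210), a gene of stem growth, was higher at 101 ± 14.5 against 42.9 ± 3.21 (1.22 ± 0.18, adjusted p = 4.28e-06). Neither of these passed without scaling. *XTH4* (−1.08 ± 0.21, adjusted p = 2.68e-04) and *XTH8* (−1.25 ± 0.18, adjusted p = 6.62e-06) were lower, but *XTH4* was lost in 5 of the 8 fits that leave out 1 library, over adjusted p from 3.89e-04 to 0.00283. Fitted without the *hmr-22* libraries, whose median SD over genes was 0.461 and 0.318 log2 units at 20°C and 27°C against 0.146 to 0.208 in the other groups, the model called 4 higher and 4 lower.

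In the libraries labelled *med14-2*, warmth was followed mostly by falls. None of 29 members was called higher by limma at 27°C (1.63% of all genes) and 5 fell (2.83%), with a median log2 change of −0.60 beside 0.00 for all genes. At an unadjusted p under 0.05, limma gave 2 higher and 17 lower. Voom called 1 higher, *XTH17*, and 8 lower, and limma without the *hmr-22* libraries called the same members. Without scaling, 1 was higher and 6 lower. Samples with the same replicate number deviated together in this pair of groups, and with the number as a block 7 members fell, *XTH14* and *XTH26* being added. *XTH15* (AT4G14130), a gene also induced by shade, stood at 14.3, 13.7, 18.4 and 17.5 scaled FPKM at 20°C and 6.9, 6.38, 7.59 and 6.12 at 27°C without overlap (−1.20 ± 0.23, adjusted p = 2.62e-04). *XTH16* (AT3G23730), closely related to it, fell from 44.3 ± 7.12 to 14.3 ± 2.03 (−1.61 ± 0.17, adjusted p = 1.62e-08), and *XTH11* (AT3G48580), of group I, from 2 ± 0.381 to 0.106 ± 0.0367 (−2.65 ± 0.29, adjusted p = 3.45e-08). *XTH12* (−1.96 ± 0.33, adjusted p = 3.74e-05) and *XTH13* (−1.90 ± 0.37, adjusted p = 2.61e-04) fell as they had in Col-0. Of 11 photosynthetic tissue markers, 7 were called lower with warmth in *med14-2* as well, their sum going from 37402 to 40749 scaled FPKM down to 18578 to 22279, and their part in these falls was not tested. The count of members depended on single libraries: it was 8 without the 27°C library with replicate number 3, and 3 without the one with number 2 or the one with number 4.

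Compared with Col-0, the warm response of *med14-2* was lower for 7 members (4.37% of all genes) and higher for 0 (2.03%). At an unadjusted p under 0.05, 2 were higher and 12 lower, and voom called 1 and 8. Limma without the *hmr-22* libraries called 2 higher and 9 lower. *XTH22* differed most. At 20°C the *med14-2* libraries already held 8.62, 7, 12.2 and 13.6 scaled FPKM, each above every Col-0 library at 20°C, and at 27°C they held 4.37, 3.64, 8.63 and 4.08, within or next to the Col-0 range. The difference in response was −3.27 ± 0.38, adjusted p = 6.53e-07. *XTH24* stood at 44.3, 42.9, 76.9 and 85.4 at 20°C and 55.6, 55.9, 111 and 67.4 at 27°C, with overlapping temperatures and a difference of −1.78 ± 0.38, adjusted p = 0.00241. *XTH4* had 453, 411, 574 and 639 at 20°C and 211, 195, 479 and 315 at 27°C, where only the library with replicate number 3 reached the cool range (difference −1.51 ± 0.30, adjusted p = 0.00106). The response of *XTH17*, by contrast, did not differ from Col-0 at the threshold, with a difference of −0.72 and a 95% interval of −1.78 to 0.34. Its level went from 7.73, 8.91, 9.58 and 10.2 to 19.1, 15.2, 38.5 and 19.4, with ranges apart. The change of 1.23 ± 0.37, adjusted p = 0.0144 in limma missed the threshold, but it was called by voom and by limma without the *hmr-22* libraries. The remaining lower responses were those of *XTH11* (−1.83 ± 0.41, adjusted p = 0.00364), *XTH16* (−1.39 ± 0.24, adjusted p = 1.72e-04), *XTH33* (−1.68 ± 0.46, adjusted p = 0.0209), which encodes a member held at the plasma membrane, and *XTH27* (−0.64 ± 0.19, adjusted p = 0.0437), a gene of leaf veins. *XTH27* was lost in 12 of 16 fits that leave out 1 library and *XTH33* in 4, and each of the other 5 held in all 16.

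*XTH22* and *XTH24* differed between *med14-2* and Col-0 in the cool. At 20°C, 5 of 29 members were higher in *med14-2* (1.24% of all genes) and 1 was lower (0.717%), without scaling 4 and 2. *XTH22* was higher by 3.04 ± 0.27, adjusted p = 1.95e-09 and *XTH24* by 1.65 ± 0.27, adjusted p = 6.03e-05. *XTH6* had 29.1, 27.9, 39.4 and 46.3 in *med14-2* and 10.6, 8.45, 11.2 and 14.7 in Col-0 (1.64 ± 0.23, adjusted p = 9.00e-06), and *XTH11* was higher by 1.78 ± 0.29, adjusted p = 5.67e-05. *XTH4* was higher by 1.07 ± 0.21, adjusted p = 6.46e-04, which was lost in 6 of the 8 fits that leave out 1 library. At 27°C none of 29 was higher (1.38% of all genes; limma gave 3 higher and 9 lower at an unadjusted p under 0.05, and voom called 0 and 4) and 3 were lower (1.85%): *XTH31*, *XTH33* (−2.13 ± 0.33, adjusted p = 1.72e-05) and *XTH20*, with 0.233, 0.237, 0.278 and 0.346 against 0.903, 1.75, 1.76 and 1.36 (−1.67 ± 0.35, adjusted p = 9.09e-04). The call of *XTH20* was lost in all 8 fits that leave out 1 library, at adjusted p from 0.00103 to 0.00566.

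*XTH31* (AT3G44990) was the only member that limma called between *med14-2* and Col-0 at both temperatures. At 20°C it stood at 136, 130.0, 89.3 and 118 scaled FPKM in Col-0 and at 127, 140.3, 136 and 138 in *pif4-2*, but at 18.6, 21.2, 16.5 and 17.0 in *med14-2* (−2.66 ± 0.19, adjusted p = 3.20e-11 against Col-0). At 27°C it was at 67.5, 70.2, 71.2 and 62.9 in Col-0, 38.4, 52.4, 81.0 and 74.5 in *pif4-2* and 18.3, 15.7, 18.5 and 19.4 in *med14-2* (−1.91 ± 0.19, adjusted p = 1.13e-08). Every *med14-2* library was far below every Col-0 library at the same temperature. Ranges were also apart from Col-0 at both temperatures in other members, *XTH20* and *XTH25* among them, without a call at both. Between temperatures, *XTH31* fell in *pif4-2* (−1.19 ± 0.19, adjusted p = 1.87e-05), did not pass in Col-0 (−0.78 ± 0.19, adjusted p = 0.00277) and had a change of −0.02 in *med14-2* with a 95% interval of −0.41 to 0.37.

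**Figure D5:**
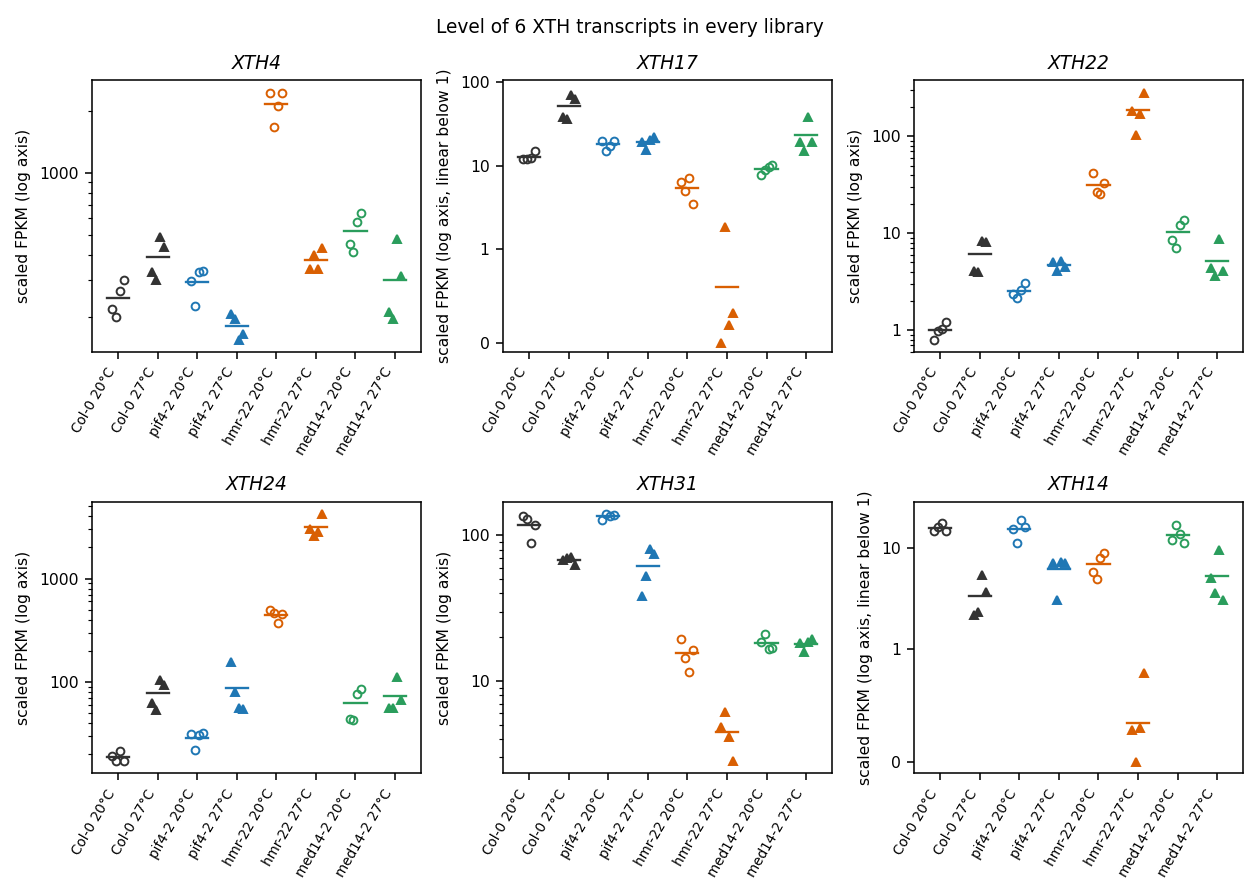
Scaled FPKM of 6 members in each of the 32 libraries, with a horizontal line at the group mean, open circles for 20°C and filled triangles for 27°C. Vertical axes are logarithmic, linear below 1 for *XTH17* and *XTH14*; *XTH31* lies between 15.7 and 21.2 in all 8 *med14-2* libraries, against 62.9 to 136 in Col-0.

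The libraries labelled *hmr-22* differed from Col-0 in most members. At 20°C, 10 of 29 were higher (21.5% of all genes) and 8 lower (28.0%), and at 27°C 12 were higher (23.6%) and 8 lower (24%), so the share of members called higher was above that of all genes at both temperatures and the share called lower was close to it at each. Which direction most members took rested on the scaling: without it 6 were higher and 16 lower at 20°C, and 8 and 14 at 27°C. Across both temperatures and both scalings, *XTH6*, *XTH22*, *XTH24*, *XTH25* and *XTH30* were higher and *XTH12*, *XTH19*, *XTH20* and *XTH31* were lower, and these 9 come first below. Of 11 photosynthetic tissue markers, 7 were called higher at 20°C as well, with a summed level of 90195 to 109018 scaled FPKM against 33546 to 38878 in Col-0, 5 of 11 root hair markers were called lower and 3 of 5 root endodermis markers higher. At 27°C the photosynthetic sum was 29358 to 54858 against 24164 to 28794, with 3 markers called higher, while 8 root hair markers were called lower and 2 endodermis markers higher. The higher photosynthetic sum rested on the scaling. In deposited FPKM it was 21504 to 37679 in *hmr-22* against 37263 to 47314 in Col-0 at 20°C. At 27°C it was 18997 to 24424 against 42742 to 47063 in that unit. The deposited endodermis sum overlapped that of Col-0 at both temperatures. The sum of 11 seed storage markers in *hmr-22* was 14.4 to 20.9 at 20°C, beside 0.527 to 1.49 for Col-0, and at 27°C 29.2 to 62.1 beside 0.880 to 1.77, with 1 of the 5 that could be tested called higher at each temperature. The part of these lists in the differences was not tested.

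Of the members higher in *hmr-22*, *XTH25* (AT5G57550) was nearly silent elsewhere. It had 9.77, 6.67, 8.83 and 11.3 scaled FPKM at 20°C and 27.0, 30.7, 29.6 and 46.0 at 27°C, against 0, 0.0555, 0 and 0.0432 at 20°C and 0.0325, 0.0359, 0.105 and 0.125 at 27°C in Col-0. The 4 Col-0 libraries at 20°C held 2 fragments in all and the *hmr-22* libraries 185, a ratio of 350.5 per unit of scaled depth with a 95% interval of 95.7 to 2915 that covers counting error only; the *med14-2* libraries, at 0.603, 0.285, 0.683 and 0.294, also lay above Col-0 at 20°C. *XTH22* had 41.7, 26.7, 25.4 and 32.7 at 20°C and 185, 104, 169 and 283 at 27°C. Every one of these libraries was above every library of the other 3 genotypes, at 4.65 ± 0.27, adjusted p = 4.80e-16 at 20°C, and 4.86 ± 0.27, adjusted p = 1.63e-16 at 27°C against Col-0. In deposited FPKM, the *hmr-22* libraries of *XTH22* at 20°C (12.2, 11.2, 5.00 and 11.6) overlapped those of *med14-2* at 20°C (8.62 to 16.9) and of Col-0 at 27°C (6.78 to 13.7), and the changes against Col-0 of 2.75 at 20°C and 3.29 at 27°C were called. *XTH24* stood at 491, 465, 369.8 and 454 at 20°C and 3021, 2580.2, 2845 and 4203 at 27°C, where the highest library of another genotype was at 155 (4.54 ± 0.27, adjusted p = 8.38e-16 at 20°C, and 5.35 ± 0.27, adjusted p = 1.60e-17 at 27°C). In deposited FPKM, *XTH24* had 144, 194, 72.9 and 160.3 at 20°C and 1857, 1149, 1841 and 2351 at 27°C, also above the 23.3, 20.2, 23.5 and 22.3 at 20°C and 106, 94.6, 172 and 159.8 at 27°C of Col-0. *XTH6* was at 225, 198, 221 and 272 at 20°C and 203, 213, 199 and 266 at 27°C (4.34 ± 0.23, adjusted p = 9.30e-17 at 20°C, and 3.97 ± 0.23, adjusted p = 7.89e-16 at 27°C), and *XTH30* (AT1G32170), of group III, at 83.9, 68.9, 63.2 and 81.7 at 20°C and 62.2, 60.9, 68.0 and 70.2 at 27°C beside 8.46, 7.7, 10.2 and 8.32 at 20°C and 4.31, 5.41, 7.61 and 8.03 at 27°C in Col-0 (3.06 ± 0.16, adjusted p = 1.98e-17 at 20°C, and 3.35 ± 0.16, adjusted p = 2.00e-18 at 27°C). For both genes the *hmr-22* libraries of the temperatures overlapped.

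Of those lower in *hmr-22*, *XTH31* had 19.6, 14.5, 11.5 and 16.4 scaled FPKM at 20°C and 4.82, 6.11, 4.11 and 2.83 at 27°C, far below the Col-0 values given above (−2.92 ± 0.19, adjusted p = 9.59e-15 at 20°C, and −3.90 ± 0.19, adjusted p = 8.73e-18 at 27°C). *XTH19* (AT4G30290), a root member that also works in the stem, was at 1.64, 0.263, 1.12 and 1.87 at 20°C and 0.587, 0, 0.175 and 0.296 at 27°C beside 7.46, 7.28, 6.12 and 9.42 at 20°C and 5.62, 5.38, 8.08 and 6.91 at 27°C in Col-0 (−2.58 ± 0.31, adjusted p = 7.76e-09 at 20°C, and −3.83 ± 0.31, adjusted p = 1.57e-12 at 27°C). These ranges were apart at each temperature, and *pif4-2* (12.0, 10.4, 13.6 and 11.9, then 10.7, 6.52, 8.92 and 9.96) and *med14-2* (7.59, 6.49, 4.77 and 6.48, then 5.11, 4.02, 5.53 and 3.49) were not called against Col-0. *XTH20* was at 0.311, 0, 0 and 1.13 at 20°C and 0.0797, 0, 0 and 0 at 27°C, with 1 fragment in all at 27°C; the Col-0 level there was 63.5 times as high, with a 95% counting interval of 11.3 to 2521. *XTH12* had no fragment in the 4 *hmr-22* libraries at 27°C and 89 in those of Col-0, so it was at least 9.28-fold lower, set against 3 fragments over the group. *XTH13* was likewise at 0 in them, at least 6.15-fold below Col-0.

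Warmth moved members of the family in both directions in *hmr-22*. Here 5 of 29 rose (13.8% of all genes) and 9 fell (8.30%), with a median log2 change of −0.66 beside 0.18 for all genes, and without scaling 6 rose and 5 fell. Of 11 photosynthetic tissue markers, 7 were called lower with warmth as well, their sum going from 90195 to 109018 scaled FPKM down to 29358 to 54858. In deposited FPKM the ranges of this sum overlapped, at 21504 to 37679 at 20°C and 18997 to 24424 at 27°C. Of the root markers, 3 of 5 endodermis and 3 of 11 root hair markers were also called lower. The part of these markers in the falls of members was not tested. *XTH22* (2.48 ± 0.27, adjusted p = 3.42e-09) and *XTH24* (2.81 ± 0.27, adjusted p = 3.00e-10) rose here as in Col-0, and their responses did not differ from Col-0 at the threshold, with 95% intervals of −0.56 to 0.99 and 0.03 to 1.58. *XTH23* went from 2.07, 1.28, 1.63 and 0.659 scaled FPKM at 20°C to 70.4, 53.5, 39.3 and 51.0 at 27°C. No warm library of another genotype exceeded 3.73, and the rise of 5.07 ± 0.28, adjusted p = 2.82e-15 was larger than that of Col-0 by 3.43 ± 0.39, adjusted p = 3.86e-08. *XTH25* (1.83 ± 0.22, adjusted p = 3.17e-08) and *XTH18* (1.33 ± 0.26, adjusted p = 5.05e-05), another root member, were the other rises.

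*XTH17* and *XTH4* took the opposite course to their Col-0 means. *XTH17* had 6.32, 4.93, 7.2 and 3.46 scaled FPKM at 20°C and 0, 1.87, 0.188 and 0.317 at 27°C, a fall of 3.20 ± 0.37 on the log2 scale (adjusted p = 1.02e-08) where Col-0 rose, and a difference in response of −5.15 ± 0.52, adjusted p = 4.04e-09. *XTH4* had 2444, 1664, 2099.7 and 2430.0 at 20°C and 342, 399, 339.7 and 431 at 27°C. Its cool libraries were all above every other library of the series, and its warm libraries lay within the range of Col-0 at 27°C (−2.50 ± 0.21, adjusted p = 2.38e-11; difference in response −3.15 ± 0.30, adjusted p = 1.40e-09). In deposited FPKM, the cool *hmr-22* libraries of *XTH4* (414 to 857) overlapped Col-0 at 27°C (532 to 799), and the warm ones (178 to 241) were below all of Col-0 at 27°C, where *XTH4* was called lower without scaling (−1.61). *XTH14* fell in *hmr-22* from 5.8, 4.96, 8 and 8.92 to 0.288, 0, 0.3 and 0.789 (−3.73 ± 0.34, adjusted p = 8.65e-11), *XTH32* (AT2G36870), a group III relative of *XTH31*, from 8.14 ± 0.942 to 0.962 ± 0.288 (−2.82 ± 0.19, adjusted p = 2.98e-13), and *XTH8* from 46.3 ± 5.47 to 8.55 ± 3.39 (−2.47 ± 0.18, adjusted p = 1.79e-12). *XTH7*, *XTH9*, *XTH15* and *XTH31* fell by 1.06 to 1.76 on the log2 scale, and none of these 4 was called without scaling. In all, the *hmr-22* response was higher than that of Col-0 for 6 members (29.0% of all genes) and lower for 9 (16.5%), by 8 and 5 without scaling. Among the 6 was *XTH26*, which was near 0 fragments in *hmr-22* at both temperatures and so had little room to fall. In the fit of all groups, *XTH4* was the only member whose response was called lower than that of Col-0 in all 3 mutants. These comparisons share the Col-0 libraries. Fitted without the *hmr-22* libraries, *XTH8*, called lower in *pif4-2* and *hmr-22*, was also called in *med14-2*. Its *med14-2* libraries held 36.1 to 50.6 scaled FPKM at 20°C and 23.1 to 36.2 at 27°C.

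*XTH15* and *XTH27* were among the members higher in *hmr-22* whose call needed the scaling. *XTH15* had 128, 114, 97.4 and 101 scaled FPKM at 20°C and 66.3, 71.7, 23.7 and 35.0 at 27°C, against 15.5, 12.4, 16.8 and 13.5 at 20°C and 5.74, 7.75, 11.0 and 10.5 at 27°C in Col-0 and 17.8, 15.0, 20.3 and 22.5 at 20°C and 14.7, 9.43, 11.6 and 11.0 at 27°C in *pif4-2*. All *hmr-22* libraries were above all of these (2.90 ± 0.23, adjusted p = 1.19e-12 at 20°C, and 2.36 ± 0.23, adjusted p = 1.42e-10 at 27°C), but on deposited FPKM the changes were 0.94 and 0.79 and neither was called. *XTH27* (AT2G01850) had 148, 119, 96.1 and 160.1 at 20°C and 186, 173, 225 and 189 at 27°C beside 20.2, 19.4, 19.5 and 25.4 at 20°C and 26.6, 24.3, 25.6 and 26.9 at 27°C in Col-0 (2.60 ± 0.14, adjusted p = 5.73e-17 at 20°C, and 2.88 ± 0.14, adjusted p = 4.23e-18 at 27°C), and was called at 27°C alone without scaling. In *pif4-2* and *med14-2* it stayed between 20.7 and 39.6 in all libraries. *XTH7* and *XTH28* (AT1G14720) at 20°C, and *XTH16* and *XTH28* at 27°C, were called higher with the scaling and had negative changes without it.

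Promoter windows set *XTH17* and its close copy *XTH18* side by side. In the 300 bases before the annotated gene start, the G-box CACGTG, a motif that PIF proteins bind, was found in 0 of 33 members and in 7.1% of 27443 such windows in the genome, searching both strands. The PBE-box CACATG, which PIF proteins also bind, was found in 5 members (*XTH17*, *XTH18*, *XTH25*, *XTH26* and *XTH33*), 15.2% of the family against 13.1% of all windows; it overlaps none of the other motifs searched at these places. The auxin response element TGTCTC was found in 3 members, 9.1% against 13.0%, and the brassinosteroid response motif (BRRE, which is CGTGTG with either T or C allowed before the last G, on both strands) in 4, 12.1% against 7.6%. A match in such a window is a description of its letters and no evidence of binding. *XTH17* and *XTH18* carry the PBE-box at the same place, its first base 63 bases before the start, and the 150 bases before the start are printed from TAIR10.1 on the coding strand with the box in capitals (*XTH17*, chr1:24256904-24257053, plus strand; *XTH18*, chr4:14827212-14827361, minus strand).
*XTH17*: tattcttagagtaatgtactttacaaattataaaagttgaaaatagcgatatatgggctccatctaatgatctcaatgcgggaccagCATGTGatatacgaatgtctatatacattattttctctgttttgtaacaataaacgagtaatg
*XTH18*: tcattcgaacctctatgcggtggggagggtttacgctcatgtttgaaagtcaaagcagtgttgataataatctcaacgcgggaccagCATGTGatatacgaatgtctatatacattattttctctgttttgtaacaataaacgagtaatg
The last 73 bases before the start are identical, and 69.3% of the aligned 150-base windows. Their transcripts are given side by side. *XTH18* was at 12.0 ± 1.22 scaled FPKM in Col-0 at 20°C and 10.1 ± 3.84 at 27°C (log2 change −0.31, 95% interval −0.84 to 0.22), where the interval for *XTH17* was 1.2 to 2.70. In *hmr-22* the pair moved in opposite directions, as given above, and in *pif4-2* neither was called. The difference between these 2 genes was not itself tested.

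The genes that make and trim xyloglucan were counted beside the family that remodels it. None of 13 xyloglucan synthesis genes was called in limma at 27°C in Col-0, *pif4-2* or *med14-2*, and 1 of 13, *CSLC5*, fell in *hmr-22* (8.30% of all genes). At an unadjusted p under 0.05, 2 were higher and 4 lower in Col-0, and 0 and 8 in *pif4-2*. These counts were 0 and 4 in *med14-2* and 3 and 7 in *hmr-22*. Voom called 0 higher and 1 lower in Col-0, 0 and 2 in *hmr-22*, and 0 and 0 in *pif4-2* and in *med14-2*. *CSLC4*, which encodes a glucan synthase for the xyloglucan backbone, had a lower response to warmth than Col-0 in *pif4-2* (−0.84 ± 0.17, adjusted p = 0.00405), *hmr-22* (−1.20 ± 0.17, adjusted p = 1.26e-06) and *med14-2* (−0.72 ± 0.17, adjusted p = 0.00619). Lower responses were called for 0.943, 16.5 and 4.37% of all genes in these mutants. *CSLC4* is 1 of the 13 synthesis genes and does not stand for the list. Of 3 trimming enzymes, none was called in Col-0 (2 higher and 0 lower at an unadjusted p under 0.05, and voom called 0 and 0). The apoplastic fucosidase gene *AXY8* rose in *hmr-22* (1.60 ± 0.12, adjusted p = 2.16e-12), where 13.8% of all genes were called higher. Of 6 primary wall cellulose synthase genes, *CESA9* rose in Col-0 (1.06 ± 0.18, adjusted p = 3.33e-05), where 2.24% of all genes were called higher. Against Col-0, *hmr-22* had 2 higher and 4 lower of the 13 synthesis genes at each temperature, where 21.5 and 23.6% of all genes were higher at 20°C and 27°C and 28.0 and 24% were lower. *XXT1*, a xylosyltransferase of the side chains, was higher by 2.74 ± 0.18, adjusted p = 8.17e-15 at 20°C. These are scaled values, and the direction of the list's sum rested on the scaling. At 20°C it was 145 to 201 scaled FPKM in *hmr-22* against 131 to 136 in Col-0. In deposited FPKM it was 28.6 to 70.4 against 143 to 174.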

How the data were processed

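The authors mapped stranded reads with CLC Genomics Workbench 21 to TAIR10 and deposited FPKM for each gene in 32 libraries. How reads mapping to several genes were handled is not given in the sources used here. Between 99.22 and 99.28% of the values (up to 1000 fragments) were whole fragments within 0.05, which gave the depth and the fragments tested by voom. FPKM was divided by a trimmed-mean factor per library and tested with limma 3.58.1 in R 4.3.3 (trend, robust, 24 residual degrees of freedom), after a minimum of 0.5 FPKM in 4 libraries. The fit was tested on simulated data. Replicates are labelled biological. Numbers paired the samples where all same-number correlations of deviations exceeded 0.1, which held for 3 of 28 pairs of groups (mean 0.0813, against −0.027 for other numbers). Library values are given for 14 members, taken by the rule for the largest changes among those called; other members appear where a count or list turned on them. Alternatives were other scaling, no scaling, pseudocounts, filters, voom, the block, fewer groups and leaving out libraries. Sequences come from RefSeq TAIR10.1, where 27438 of 27445 nuclear genes lie at the authors’ coordinates. Members and lists were chosen with earlier results of these data known.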

Additional observations from a re-analysis of the deposited data

Results flagged for a closer look

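Among the 14 members described library by library, 8 of 112 combinations of gene and group held a library that stood apart from the other 3 by Dixon's criterion, which chance meets in about 1 of 20 groups. In Col-0 at 20°C, the library with replicate number 4 had 15.0 scaled FPKM of *XTH17* (the others 11.9 to 12.3) and 25.4 of *XTH27* (19.4 to 20.2). In *pif4-2* at 20°C, the library with number 2 had 21.9 of *XTH24* (30.4 to 32.1) and 7.98 of *XTH30* (9.94 to 10.0), and at 27°C the library with number 2 had 3.04 of *XTH14* (7.08 to 7.26). In *hmr-22* at 27°C, number 2 had 1.87 of *XTH17* (0 to 0.317) and number 1 had 0.0797 of *XTH20*, which was at 0 in the others. In *med14-2* at 27°C, number 3 had 8.63 of *XTH22* (3.64 to 4.37).

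The response to warmth differed from that of Col-0 by a test of the difference itself for 26 combinations of member and mutant, given in log2 units. The 3 mutants share the Col-0 libraries. In *pif4-2* the differences were −1.35 for *XTH4*, −1.19 for *XTH8*, −1.86 for *XTH17* and −1.43 for *XTH22*. In *med14-2* they were −1.51 for *XTH4*, −1.83 for *XTH11*, −1.39 for *XTH16*, −3.27 for *XTH22*, −1.78 for *XTH24*, −0.64 for *XTH27* and −1.68 for *XTH33*. In *hmr-22* the response was lower for *XTH4* (−3.15), *XTH7* (−2.44), *XTH8* (−2.49), *XTH9* (−0.68), *XTH14* (−1.51), *XTH17* (−5.15), *XTH19* (−1.25), *XTH31* (−0.98) and *XTH32* (−2.64). It was higher for *XTH5* (1.36), *XTH11* (1.18), *XTH18* (1.64), *XTH23* (3.43), *XTH25* (1.60) and *XTH26* (1.57). For *XTH26* the *hmr-22* libraries held 2, 0, 3 and 0 fragments at 20°C and 0, 0, 0 and 2 at 27°C. At that level a fall like that of Col-0 could not show.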

How the results depend on the processing

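Of 2062 values of single members under the alternatives, 1906 kept their direction and side of the threshold, 152 kept their direction only, and 4 reversed. These are members called in the main fit, so calls gained under an alternative are not counted. Fits that leave out 1 library supplied 1015 of those that kept both and 97 of those that kept direction only. Without scaling, 87 kept both, 22 kept their direction only and 4 reversed. The 4 were *hmr-22* against Col-0 without scaling: −0.56 for *XTH28* and −0.18 for *XTH7* at 20°C, and −0.22 for *XTH28* and −0.54 for *XTH16* at 27°C. For *pif4-2* at 20°C the count of members was 1 in place of 0 with a pseudocount of 1 FPKM, with the replicate block, with voom, with only the groups compared and without the *hmr-22* libraries. For *med14-2* with warmth it was 9 with voom and without *hmr-22*, and for *pif4-2* at 27°C 7 and 8. The count of differing responses was 7 for *pif4-2* with only the groups compared and without *hmr-22* (1 higher and 6 lower in each). It was 11 for *med14-2* without *hmr-22* (2 higher and 9 lower). The cause was not tested. Among the comparisons made, replicate numbers paired the samples in *med14-2* against Col-0 at 20°C, where the block left the count at 6, and in the *med14-2* response, where it went from 5 to 7 as given above.

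Leaving out 1 library, the counts with warmth ran from 9 to 10 in Col-0, 6 to 8 in *pif4-2*, 12 to 14 in *hmr-22* and 3 to 8 in *med14-2*. Against Col-0 they ran from 0 to 1, 17 to 18 and 5 to 6 at 20°C for *pif4-2*, *hmr-22* and *med14-2*, and from 3 to 4, 20 to 21 and 2 to 2 at 27°C. Differing responses ran from 2 to 4, 14 to 17 and 5 to 10. Depth limits *XTH1*, *XTH2*, *XTH3* and *XTH29*, which were not testable, and the low counts of *XTH12*, *XTH13*, *XTH20*, *XTH25* and *XTH26*.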
